A study of Mus musculus with 15 samples.

Results

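The genes described are 8 receptors for extracellular nucleotides, P2ry12, P2ry13, P2ry6, P2ry14, P2ry1, P2ry2, P2rx4 and P2rx7, together with the related receptor gene Gpr34. They were taken by name from the deposited count table, which held all 9 members among 53278 gene symbols, and all 9 passed the filter on low counts that left 18369 tested genes. The table covers the brain cortex of 15 male C57BL/6J mice aged 10 to 20 weeks, with 1 RNA sequencing library per mouse and 5 mice per group. The labels name no transgene or deletion in any group. The control group ate control food, the depletion group ate food with PLX3397 for 9 days, and the repopulation group had the same 9 days of PLX3397 before returning to control food for a further 9. This compound, given by mouth, blocks the kinase CSF1R, on which the survival of microglia depends, and is known to act on related kinases too. The series concerns how microglia act on the reactivity of brain vessels through CD39, an enzyme that breaks down the nucleotides these receptors detect.

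As background, ATP, ADP, UTP and UDP leave active or damaged cells and act on receptors of the P2 class. P2Y receptors are G protein-coupled and P2X receptors are cation channels opened by ATP. Microglia, the resident macrophages of the brain, carry several of them. ADP acting on P2Y12 draws microglial processes towards a site of injury, UDP acting on P2Y6 promotes phagocytosis, and ATP acting on P2X7 leads to assembly of the inflammasome. GPR34 belongs to the P2Y12-like branch of the G protein-coupled receptors and responds to lysophosphatidylserine rather than to a nucleotide.

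Total counts ran from 23413551 to 48617851 reads. The microglial gene Csf1r was at 84.9 ± 4.09 CPM (read counts scaled to library size with TMM factors; mean ± SD, n = 5) in control, 0.215 ± 0.12 CPM on PLX3397 and 105 ± 5.47 CPM after repopulation. Summed over 16 microglial reference genes the level was 378 to 419 CPM in control, 14.5 to 18.8 CPM on PLX3397 and 422 to 482 CPM after repopulation. Markers of cortical neurons summed to 2340 to 2590 CPM over all libraries, as a check of the labelled tissue. Choroid plexus markers, which belong to neighbouring tissue, were at 8.23 to 212 CPM in 14 libraries and at 546 CPM in repopulation 4; their median was 13.3 CPM in control, 83.4 CPM on PLX3397 and 13.9 CPM after repopulation. In bulk tissue a smaller number of cells of a type and less RNA per cell cannot be told apart.

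In the genome, 3 of the genes lie side by side on mouse chromosome 3, where P2ry12 (chr3:59216272-59262871), P2ry13 (chr3:59207892-59210882) and P2ry14 (chr3:59113855-59153618, all GRCm38, minus strand) sit inside the span of Med12l, which runs on the opposite strand. P2ry12 and P2ry13 are separated by 5389 bases. Another pair, P2rx7 (chr5:122643911-122691432) and P2rx4 (chr5:122707544-122729738), lies on chromosome 5 with 16111 bases between them, and P2ry6 (chr7:100937630-100974649) and P2ry2 (chr7:100996568-101012866) lie on chromosome 7 with 21918 bases between them. P2ry1 is at chr3:61002795-61008982 on the plus strand, and Gpr34 (chrX:13632089-13640858) lies within the span of Cask on the opposite strand. All are annotated as protein-coding genes. Exons of P2ry12 share 9 bases with exons of Med12l, those of P2ry1 share 992 bases with the antisense gene Gm37035, and those of P2rx7 share 119 bases with Mir8115. Exons of P2ry13 and P2ry14 share 0 bases with exons of Med12l, and those of Gpr34 share 0 with exons of Cask. Whether the reads were counted by strand is not given in the sources used here. Reads over the stretches where these genes overlap could therefore not be told apart.

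The 250 bases before the RefSeq transcription start of 4 members are shown to set a pair of receptors that fell on PLX3397, P2ry12 and P2ry13, beside a pair that was not called, P2ry1 and P2rx4. The sequences are from RefSeq on GRCm38.p6, run 5′ to 3′ on the strand of the gene, and have each CG dinucleotide in capitals.
P2ry12 (chr3:59262986-59263235, minus strand): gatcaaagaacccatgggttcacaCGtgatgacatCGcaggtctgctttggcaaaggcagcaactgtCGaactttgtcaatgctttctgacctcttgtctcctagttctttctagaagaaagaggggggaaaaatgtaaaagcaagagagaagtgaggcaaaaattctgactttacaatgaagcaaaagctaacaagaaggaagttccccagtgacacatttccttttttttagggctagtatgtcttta
P2ry13 (chr3:59210883-59211132, minus strand): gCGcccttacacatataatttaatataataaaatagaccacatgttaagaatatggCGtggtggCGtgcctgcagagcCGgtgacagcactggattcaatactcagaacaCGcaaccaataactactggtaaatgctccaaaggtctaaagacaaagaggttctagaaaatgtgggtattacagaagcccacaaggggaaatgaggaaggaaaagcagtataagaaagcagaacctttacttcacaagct
P2ry1 (chr3:61002535-61002784, plus strand): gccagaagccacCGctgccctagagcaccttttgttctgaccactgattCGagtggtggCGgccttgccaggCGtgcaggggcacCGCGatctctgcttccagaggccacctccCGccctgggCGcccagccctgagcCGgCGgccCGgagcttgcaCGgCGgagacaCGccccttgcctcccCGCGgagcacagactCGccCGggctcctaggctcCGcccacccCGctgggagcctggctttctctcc
P2rx4 (chr5:122707294-122707543, plus strand): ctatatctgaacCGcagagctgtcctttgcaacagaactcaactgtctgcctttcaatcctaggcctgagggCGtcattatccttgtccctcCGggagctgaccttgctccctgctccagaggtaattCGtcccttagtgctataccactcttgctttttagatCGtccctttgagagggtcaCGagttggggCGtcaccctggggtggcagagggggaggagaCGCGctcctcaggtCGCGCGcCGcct
The windows of P2ry12 and P2ry13 held 3 and 5 CG dinucleotides and had a G and C content of 41.6% each. Those of P2ry1 and P2rx4 held 20 and 13 and had 70.8% and 57.2%, while the median of all 32851 RefSeq windows of this length was 6 CG dinucleotides and their mean G and C content was 53.2%. No window was listed for P2ry6 or Gpr34, which both fell. The table of windows had 12 entries for the other 7 members. Among these, P2ry14, which was not called, had 1 to 4 CG dinucleotides over 4 start sites, P2rx7, which fell, had 4 and 6 over its starts, and P2ry2, which was not called, had 21 and 26. Among these 7 members, a low number of CG dinucleotides therefore did not separate the receptors that fell from those that were not called. The letters GGAAGT, the core of the motif that the macrophage factor PU.1 and other ETS factors recognise, were searched on either strand. They were found in the P2ry12 window, starting 51 bases before the start site, and at 1 of the 4 starts of P2ry14. None of the other windows of these 7 members held them. Thus the P2ry12 window and 1 P2ry14 window among the 12 held them, against 19.7% of all windows. Some windows of P2ry14 and of P2ry2 overlap each other. With so few windows, the members could not be told apart from that share.

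Compared per length of exon, P2ry12 was the most abundant of the receptors in control cortex. Its level was 9.62 CPM per kb (range 8.75 to 10.3 over 5 mice), followed by Gpr34 at 3.86, P2ry13 at 3.52, P2rx4 at 1.99, P2rx7 at 1.81, P2ry6 at 0.745, P2ry1 at 0.497, P2ry14 at 0.214 and P2ry2 at 0.124 CPM per kb. Ranges over the mice overlapped between Gpr34 and P2ry13, between P2rx4 and P2rx7, between P2ry6 and P2ry1, and between P2ry14 and P2ry2, and did not overlap between the other neighbours in that order. On PLX3397 the order changed. P2rx4 came first at 1.93 CPM per kb, followed by P2rx7 at 1.14 and P2ry1 at 0.523, while P2ry12 stood at 0.285, Gpr34 at 0.0438 and P2ry13 last at 0.0193. After repopulation P2ry12 was first again at 10.6 CPM per kb, and P2ry13 at 3.61 and Gpr34 at 2.99 followed with overlapping ranges, in the reverse of their control order.

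**Figure D1:**
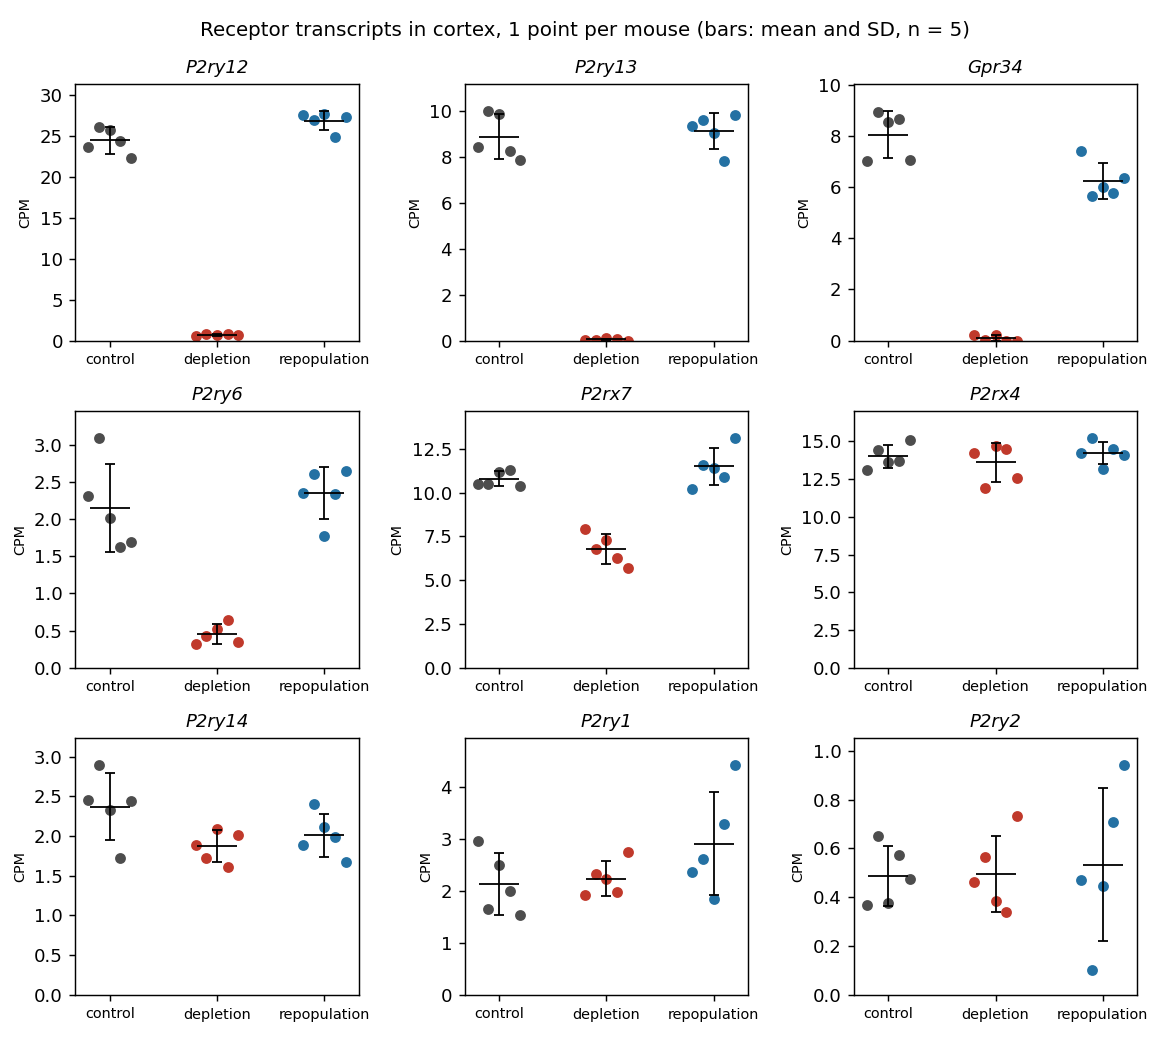
Level of each receptor transcript in CPM (vertical axes, linear, from 0) in the 5 mice of each group, with the mean and SD as bars. P2ry12, P2ry13, Gpr34, P2ry6 and P2rx7 are lower in all 5 PLX3397 mice than in any control mouse, and the points of P2rx4, P2ry14, P2ry1 and P2ry2 overlap between groups.

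The first comparison asks which receptor transcripts change when microglia are depleted. On PLX3397, 5 of the 9 members fell, namely P2ry12, P2ry13, Gpr34, P2ry6 and P2rx7, and 0 rose, by the quasi-likelihood F test of edgeR with p-values adjusted over all tested genes by the Benjamini-Hochberg method. A call is an adjusted p under 0.05. In this comparison 16.5% of all tested genes were called, 8.35% lower and 8.19% higher. DESeq2 also called 5 lower and 0 higher members, and 6 were lower and 0 higher at an unadjusted p under 0.05. The median log2 fold change was -0.67 over the 9 members and 0.00 over all tested genes.

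Transcripts of the ADP receptors that couple to Gi were nearly lost. P2ry12, which also serves platelets, was at 23.7, 26.2, 25.8, 24.4 and 22.3 CPM in the control mice and at 0.534, 0.846, 0.697, 0.82 and 0.731 CPM in the PLX3397 mice. Every PLX3397 mouse was far below every control, with 2.96% ± 0.504 of the control mean left (SD, n = 5). The log2 fold change was -5.07 (standard error 0.13, edgeR adjusted p = 8.04e-24). P2ry13, the other Gi-coupled ADP receptor, was at 8.42, 10.0, 9.87, 8.25 and 7.88 CPM in control and at 0.0356, 0.0353, 0.105, 0.0683 and 0 CPM on PLX3397. Those low values rest on 1, 1, 3, 2 and 0 reads per library, and 0.548% ± 0.443 of control was left. Its log2 fold change was -7.34 (95% interval -8.36 to -6.32, edgeR adjusted p = 2.22e-19). P2ry1, the ADP receptor that couples to Gq and is known from astrocytes and platelets, was at 2.97, 1.66, 2.50, 2.00 and 1.54 CPM in control and at 1.92, 2.33, 2.23, 1.98 and 2.75 CPM on PLX3397. Its groups overlapped, and it was not called (log2 fold change 0.04, interval -0.41 to 0.48, edgeR adjusted p = 0.937).

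Gpr34 transcripts were nearly lost as well. The gene was at 7.03, 8.94, 8.57, 8.66 and 7.09 CPM in control and at 0.214, 0.0353, 0.209, 0 and 0 CPM on PLX3397, which are 6, 1, 6, 0 and 0 reads. A count of 0 allows up to 0.102 and 0.129 CPM in these last libraries, as counting error only. With 1.14% ± 1.37 of control left, the log2 fold change was -6.35 (standard error 0.49, edgeR adjusted p = 2.30e-14).

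Among the receptors for UDP, UDP-glucose and UTP, P2ry6 fell and the others were not called. P2ry6, the UDP receptor, was at 2.31, 3.09, 2.02, 1.63 and 1.69 CPM in control and at 0.32, 0.423, 0.523, 0.649 and 0.344 CPM on PLX3397. The groups did not overlap, and 21% ± 6.3 of control remained (log2 fold change -2.24, standard error 0.24, edgeR adjusted p = 4.04e-08). P2ry14, the receptor for UDP-glucose, was at 2.46, 2.89, 2.33, 1.72 and 2.44 CPM in control and at 1.89, 1.73, 2.09, 1.61 and 2.02 CPM on PLX3397, with overlap. Its level was 78.8% ± 8.5 of control and it was not called (log2 fold change -0.35, interval -0.67 to -0.04, edgeR adjusted p = 0.116). With length and GC trends taken out it was called lower (-0.49, adjusted p = 0.0354), and likewise without control 4 (-0.44, adjusted p = 0.0433), while its adjusted p ran from 0.0354 to 0.273 over all settings. P2ry2, the receptor for ATP and UTP, had 10 to 20 reads per library in these groups, at 0.369 to 0.65 CPM in control and 0.341 to 0.731 CPM on PLX3397. At this depth its interval of -0.73 to 0.79 on the log2 scale leaves room for a change of more than 1.5-fold in either direction.

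Of the ATP-gated channels, P2rx7 fell and P2rx4 was not called. P2rx7 was at 10.5, 10.5, 11.2, 11.3 and 10.4 CPM in control and at 7.94, 6.77, 7.28, 6.25 and 5.68 CPM on PLX3397. All PLX3397 mice were below all controls, yet 62.8% ± 8.13 of the control level remained (log2 fold change -0.67, standard error 0.09, edgeR adjusted p = 3.10e-06). P2rx4 was at 13.1, 14.4, 13.6, 13.7 and 15.1 CPM in control and at 14.2, 11.9, 14.7, 14.5 and 12.6 CPM on PLX3397. These overlapped, and the interval of its log2 fold change was narrow, from -0.18 to 0.10 (edgeR adjusted p = 0.76). Oligodendrocyte precursor markers moved in the same direction as P2rx7, with 6 of 7 markers lower and summed levels of 196 to 222 CPM in control against 95.8 to 151 CPM on PLX3397, while 6 of 8 markers of mature oligodendrocytes were higher; their part in the P2rx7 result was not tested. Endothelial markers summed to 232 to 253 CPM in control and 204 to 224 CPM on PLX3397, with 4 of 9 lower, and border macrophage markers to 30.3 to 40.0 and 4.53 to 5.74 CPM, with all 6 tested markers lower and Pf4, Cd209f and Ms4a7 at 0 in all PLX3397 libraries. Their part in the member results was not tested either. Platelet markers summed to 16.3 to 21.1 and 14.7 to 19.3 CPM, with 1 of 3 tested markers lower. Blood leukocyte markers were at 0.129 to 1.23 CPM in all groups, and none of the 10 passed the count filter. Over all tested genes, 8.35% were called lower and 8.19% higher on PLX3397.

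**Figure D2:**
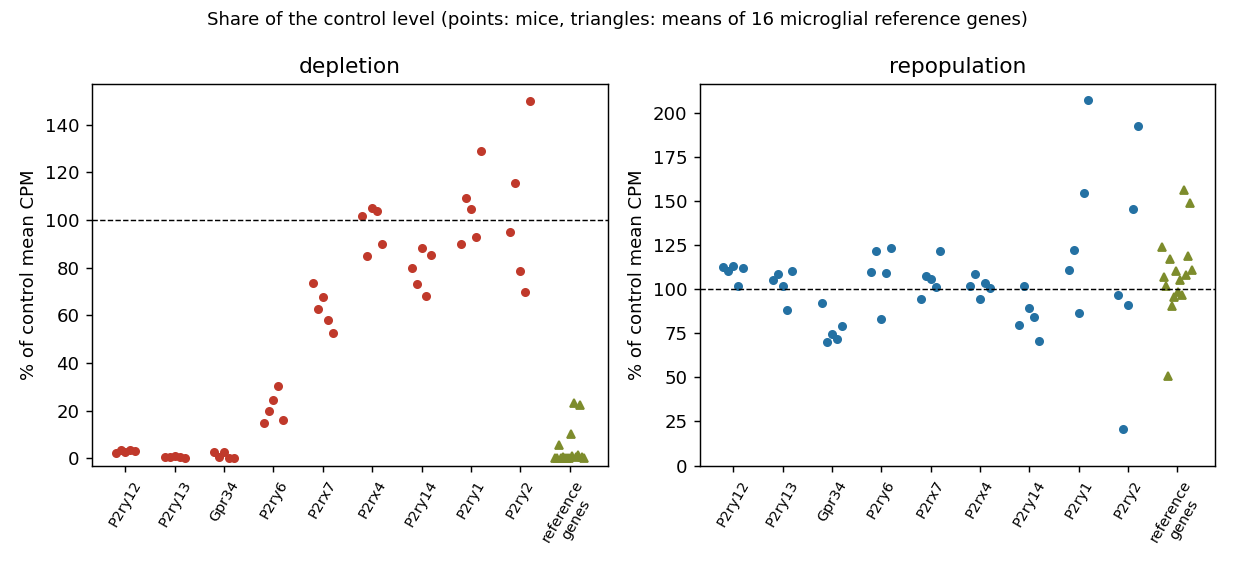
Level of each receptor in the PLX3397 mice and in the mice after repopulation, as a percentage of the control mean (vertical axes, linear; dashed line at 100%), beside the means of 16 microglial reference genes as triangles. P2ry13, Gpr34 and P2ry12 sit near 0 on PLX3397, P2ry6 between 14.9% and 30.2%, P2rx7 between 52.6% and 73.5%, and after repopulation the Gpr34 mice lie between 70.3% and 92.0%.

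The residual levels can be set beside the microglial reference genes. Those had a median of 0.519% ± 0.29 of control left on PLX3397 (mean of the library medians, SD, n = 5), and single genes ranged from 0% for Itgam to 23.2% for Aif1. P2ry13 kept a larger share than 9 of the 16 reference genes, Gpr34 than 11, P2ry12 than 12 and P2ry6 than 14. P2rx7, P2rx4, P2ry14, P2ry1 and P2ry2 kept a larger share than all 16. These ranks describe the levels and carry no test. The shares of P2ry13 and Gpr34 rest on 7 and 13 reads over the 5 PLX3397 libraries, so a few reads could move their ranks.

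Whether neighbouring receptors were lowered unequally was tested on their log2 ratio per mouse, for 3 pairs in 2 comparisons. In the channel pair, P2rx7 over P2rx4 was at -0.37 ± 0.12 in control and -0.99 ± 0.18 on PLX3397 (log2 ratio, SD, n = 5 each), a difference of -0.63 with no overlap (two-sided exact permutation p = 0.00794, the smallest that 252 splits allow; 0.0159 after adjustment over 6 tests). P2ry6 over P2ry2 was at 1.92 ± 0.41 in control and -0.11 ± 0.67 on PLX3397, a difference of -2.03 (exact permutation p = 0.00794, adjusted 0.0159). For P2ry12 over P2ry13 the log2 ratio was 1.46 ± 0.08 in control and 2.50 ± 0.44 on PLX3397, a difference of 1.04 (exact permutation p = 0.00794, adjusted 0.0159). This last direction depends on the pseudocount of 0.1 CPM, which exceeds most P2ry13 levels on PLX3397. With 0.5 CPM the difference was -0.26 (exact permutation, adjusted p = 0.0159) and with 0.02 CPM it was 2.19. The permutation test thus gave the same adjusted p in opposite directions, so its p-value does not settle the direction for this pair. Without any pseudocount, P2ry12 had 3881 reads to 1410 of P2ry13 over the control libraries, a ratio of 2.75, and 100 reads to 7 over the PLX3397 libraries, a ratio of 14.3. Med12l, whose span holds these genes, was at 38.2 ± 2.05 CPM in control and 43.3 ± 3.58 CPM on PLX3397 (log2 fold change 0.18, edgeR adjusted p = 0.0166), and its part in the remaining P2ry12 reads was not tested. Cask, which spans Gpr34, was at 100 ± 5.84 and 103 ± 4.89 CPM (0.04, adjusted p = 0.576).

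**Figure D3:**
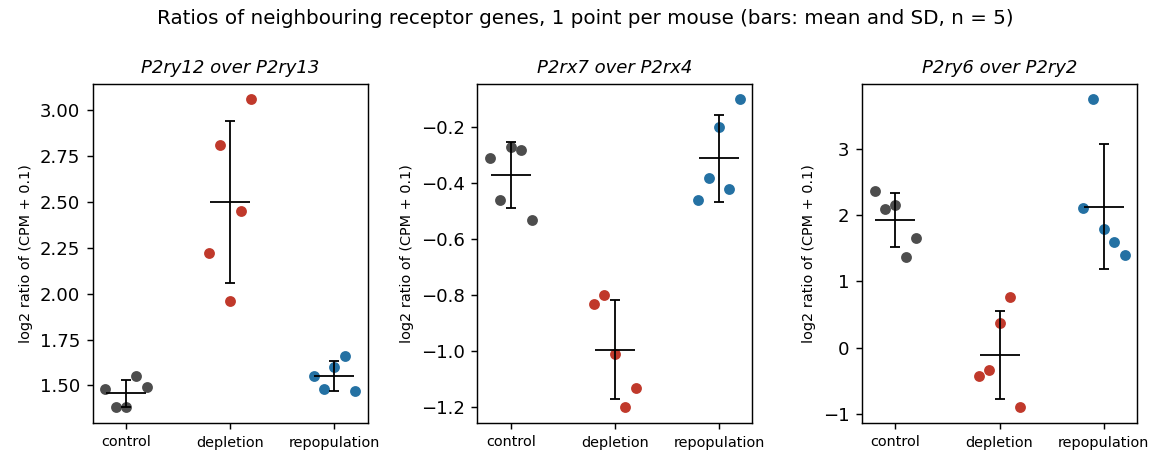
Log2 ratio of CPM + 0.1 for 3 pairs of receptor genes that neighbour each other in the genome (vertical axes), 1 point per mouse, with mean and SD as bars (n = 5 per group). The PLX3397 mice do not overlap the controls in any pair, and the repopulation mice overlap the controls in all 3.

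The second comparison follows the return of the transcripts after PLX3397 was withdrawn. The 5 members that had fallen rose and 0 fell, while 16.6% of all tested genes were called, 7.61% higher and 8.98% lower (edgeR). DESeq2 gave 5 higher and 0 lower as well, and so did an unadjusted p under 0.05. The comparison shares the PLX3397 mice with the first, so its values are not a separate line of support. P2ry13 rose by 7.37 on the log2 scale (edgeR adjusted p = 2.05e-19), Gpr34 by 5.99 (adjusted p = 1.13e-13), P2ry12 by 5.20 (adjusted p = 3.65e-24), P2ry6 by 2.36 (adjusted p = 1.21e-08) and P2rx7 by 0.75 (adjusted p = 3.31e-07). For each of these 5 genes every repopulation mouse was above every PLX3397 mouse. P2ry1 was at 2.91 ± 0.993 CPM after repopulation and 2.24 ± 0.331 CPM on PLX3397 and was not called (0.38, adjusted p = 0.24), and the log2 fold changes of P2ry2, P2ry14 and P2rx4 were 0.12, 0.11 and 0.07, with adjusted p-values of 0.874, 0.697 and 0.584.

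**Figure D4:**
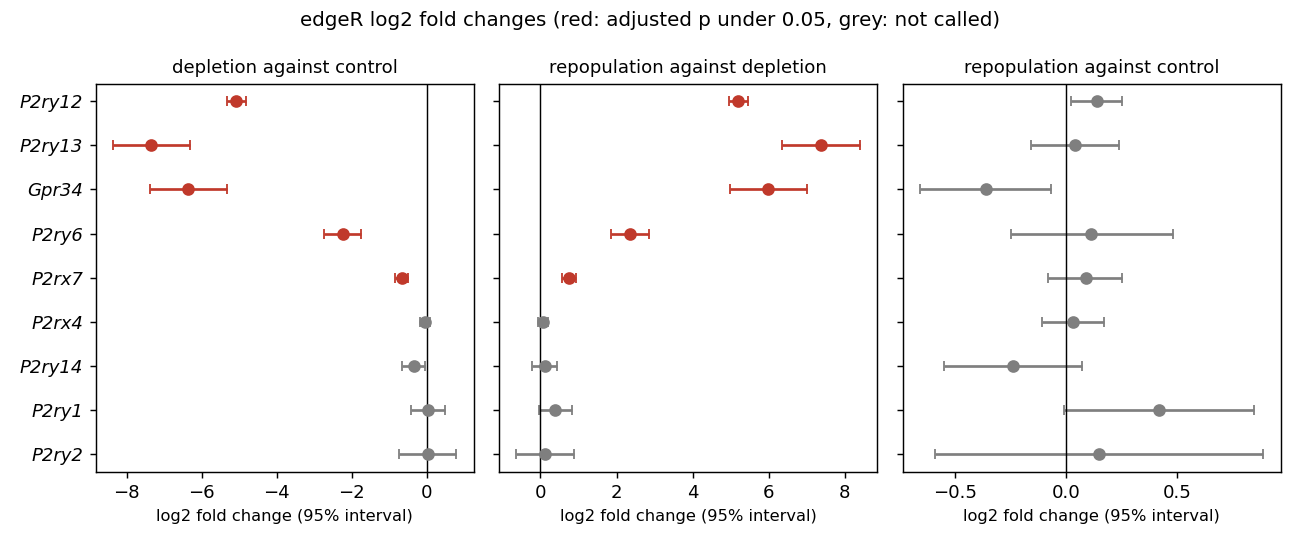
Log2 fold change of each receptor in the 3 comparisons (horizontal axes, each with its own scale) with 95% intervals, in red where the edgeR adjusted p is under 0.05. The same 5 receptors are red in the first and second panels and 0 are red in the third, where Gpr34 lies at -0.36 and P2ry12 at 0.14.

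The third comparison asks whether the receptors stood at their control level 9 days after the drug. Of the 9 members, 0 were called in edgeR's test, while 29.1% of all tested genes were. At an unadjusted p under 0.05 there were 1 higher member, P2ry12, and 1 lower, Gpr34, and DESeq2 called 1 lower, Gpr34, and 0 higher.

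Gpr34 was the member nearest to a call. After repopulation it was at 7.42, 5.66, 6.01, 5.79 and 6.37 CPM, so that 4 of 5 mice lay below every control and repopulation 1 lay within the control range of 7.03 to 8.94 CPM. Its level was 77.6% ± 8.75 of control (log2 fold change -0.36, interval -0.66 to -0.07, edgeR adjusted p = 0.0587). It was called lower by DESeq2 (adjusted p = 0.00881), without a filter on low counts (0.00641) and with control and repopulation fitted alone (0.00615). It was also called without control 1 (-0.42, adjusted p = 0.0417), without repopulation 1 (-0.43, adjusted p = 0.0374) and without any 1 of depletion 1 to 5 (adjusted p from 0.0328 to 0.0487). That makes 10 of 24 settings in all, with adjusted p-values from 0.00615 to 0.167 and a negative log2 fold change throughout. The microglial reference genes were at a median of 108% ± 5 of control. Relative to that median, Gpr34 was at 0.719 ± 0.0934 of its control level (range 0.642 to 0.881, against 0.827 to 1.14 in the control mice). Of the 16 reference genes, 15 recovered to a higher share of control than Gpr34, and 1, Fcrls at 50.7%, to a lower one. Cask, which spans Gpr34, was higher than control at this time, at 115 ± 4.09 CPM (0.19, adjusted p = 0.000887).

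P2ry12 was at 27.6, 27.0, 27.7, 24.9 and 27.4 CPM after repopulation. Its 4 higher mice lay above every control, and repopulation 4, the library with the high choroid plexus markers, lay within the control range. The level was 110% ± 4.8 of control (log2 fold change 0.14, interval 0.02 to 0.25, edgeR adjusted p = 0.0783), and 0 of 24 settings called it. P2ry13 was at 9.34, 9.63, 9.05, 7.82 and 9.82 CPM, overlapping the controls, with 103% ± 8.9 of control and an interval of -0.16 to 0.24. Relative to the reference median, P2ry12 stood at 1.02 ± 0.0562 and P2ry13 at 0.949 ± 0.0667. The ratio of P2ry12 over P2ry13 was 1.55 ± 0.08 against 1.46 ± 0.08 in control (log2, exact permutation p = 0.127, adjusted 0.19).

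The other receptors overlapped their controls after repopulation. P2ry6 was at 2.36, 2.61, 1.78, 2.34 and 2.65 CPM (log2 fold change 0.11, interval -0.25 to 0.48, edgeR adjusted p = 0.683). P2rx7 was at 10.2, 11.6, 11.4, 10.9 and 13.1 CPM (0.09, interval -0.08 to 0.25, adjusted p = 0.474), and P2rx4 at 14.2, 15.2, 13.2, 14.5 and 14.1 CPM (0.03, interval -0.11 to 0.17, adjusted p = 0.813). The channel ratio was back at -0.31 ± 0.15 against -0.37 ± 0.12 in control (exact permutation p = 0.548, adjusted 0.657), and that of P2ry6 over P2ry2 at 2.13 ± 0.94 against 1.92 ± 0.41 (exact permutation p = 0.802, adjusted 0.802). P2ry14 was at 1.89, 2.41, 2.11, 1.99 and 1.67 CPM (-0.24, interval -0.55 to 0.07, adjusted p = 0.245). P2ry1 and P2ry2 varied most between mice. P2ry1 was at 2.36, 2.61, 1.85, 3.30 and 4.42 CPM (0.42, interval -0.01 to 0.85, adjusted p = 0.135). It was called higher without control 1 (0.59, adjusted p = 0.04) or without repopulation 3 (0.54, adjusted p = 0.0478), and its adjusted p ran from 0.04 to 0.446 over the 24 settings. P2ry2 was at 0.472, 0.102, 0.445, 0.71 and 0.94 CPM, on 14, 3, 12, 20 and 27 reads (0.15, interval -0.59 to 0.89).

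Of 8 further genes named as P2 receptors, 7 were in the count table and 4 passed the count filter. In each of the 3 comparisons edgeR and DESeq2 called 0 of them. At an unadjusted p under 0.05 there was 1 lower gene on PLX3397, 1 higher after repopulation relative to PLX3397, and 0 in repopulation against control. P2rx1, an ATP-gated channel of platelets and smooth muscle, was at 0.456 CPM in control and 0.236 CPM on PLX3397 (-0.99, edgeR adjusted p = 0.0658). P2rx6 was at 8.59 and 8.47 CPM (-0.01, adjusted p = 0.947). Of 13 related G protein-coupled receptor genes 8 were tested, and on PLX3397 4 fell and 0 rose, with a median log2 fold change of -0.53. Over all tested genes, 8.35% were called lower and 8.19% higher in that comparison. Ptafr, the receptor for platelet-activating factor, fell by 6.10 (edgeR adjusted p = 1.34e-10), Gpr183, a receptor for oxysterols, by 3.92 (adjusted p = 3.5e-08), Cysltr1, a leukotriene receptor, by 3.20 (adjusted p = 2.49e-06) and Gpr17, a receptor of maturing oligodendrocyte precursors that is also in the precursor marker list, by 0.71 (adjusted p = 0.0106). After repopulation 3 of these, Ptafr, Gpr183 and Cysltr1, rose from their PLX3397 level, and 0 of the 8 differed from control by edgeR, by DESeq2 or at an unadjusted p under 0.05. Of all tested genes, edgeR called 7.61% higher after repopulation than on PLX3397 and 29.1% in either direction against control. Gpr17 was at 57.6, 35.4 and 47.8 CPM in control, on PLX3397 and after repopulation (0.43 from PLX3397 to repopulation, adjusted p = 0.0977).

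Of 12 genes that transduce P2Y signals, 5 fell and 1 rose on PLX3397, with a median log2 fold change of -0.09. The shares over all tested genes were 8.35% lower and 8.19% higher. Gna15, a Gq-class subunit of blood-derived cells, fell from 1.43 to 0.0295 CPM (-5.43, edgeR adjusted p = 1.09e-12), Pik3cg, the kinase that G protein subunits activate in myeloid cells, from 3.72 to 0.209 CPM (-4.12, adjusted p = 2.68e-13) and the phospholipase gene Plcb2 from 4.68 to 2.70 CPM (-0.79, adjusted p = 8.46e-05). Gnai2, the Gi subunit gene through which P2Y12 signals, fell less, from 159 to 139 CPM (-0.20, adjusted p = 6.53e-05). After repopulation 3 of the 12 were higher and 2 lower than control, where 13.9% of all tested genes were called higher and 15.2% lower. The higher ones were Pik3cg at 5.67 CPM (0.60, adjusted p = 0.00194), Plcb2 at 5.95 CPM (0.35, adjusted p = 0.0271) and the neuronal phospholipase gene Plcb1 (0.31, adjusted p = 4.5e-05). Kcnk13, the potassium channel THIK-1 known to be gated downstream of P2Y12 in microglia, was at 9.13, 8.47 and 8.0 CPM in the 3 groups and was not called (-0.12 on PLX3397, adjusted p = 0.569).

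On PLX3397, edgeR called 8.35% of all tested genes lower and 8.19% higher. Of 7 genes of the inflammasome that P2X7 activates, 6 were tested, and 3 fell and 0 rose on PLX3397, with a median of -0.71. Nlrp3, its sensor, fell from 0.968 to 0.0805 CPM (-3.55, edgeR adjusted p = 2.51e-08), the adaptor gene Pycard by 1.49 (adjusted p = 1.14e-06) and the pore gene Gsdmd by 1.04 (adjusted p = 0.000316). Il18 was at 12.9 and 12.6 CPM (-0.04, adjusted p = 0.778). After repopulation 4 of the 6 were above the PLX3397 level, and 0 differed from control by edgeR or DESeq2, with 1 at an unadjusted p under 0.05. For all tested genes, edgeR called 7.61% higher than on PLX3397 and 29.1% in either direction against control. Of the genes that handle lysophosphatidylserine, the ligand of GPR34, the lipase gene Abhd12 was at 249 CPM in control, 231 CPM on PLX3397 and 205 CPM after repopulation (-0.28 for repopulation against control, adjusted p = 1.94e-06), while Pla1a and Abhd16a were not called in any comparison. Of 5 tested ATP release genes 0 were called on PLX3397 by edgeR or DESeq2, with 2 lower at an unadjusted p under 0.05, and Panx1, a channel that releases ATP, was lower than control after repopulation (16.8 and 14.8 CPM, -0.18, adjusted p = 0.0292). For the enzymes that degrade the receptors' ligands, Entpd1 was at 13.7, 7.57 and 13.6 CPM in control, on PLX3397 and after repopulation. Entpd1 was called lower on PLX3397 (-0.86, edgeR adjusted p = 9.44e-10) and higher after repopulation than on PLX3397 (0.85, adjusted p = 1.03e-09). Against control it was not called after repopulation (-0.01, adjusted p = 0.943). Nt5e was at 8.27, 9.64 and 10.3 CPM. It was called only in repopulation against control, higher and just under the threshold (0.31, adjusted p = 0.0498).

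Over the 15 libraries the genes most like each receptor were found by Pearson correlation of log2 CPM with 13649 genes at a mean of at least 1 CPM. Because the libraries form 3 groups, these values mainly describe how alike the genes fell and returned. P2ry12 was most like Laptm5 and Itgam (r = 0.998 each) and P2ry13 most like Laptm5 (0.998) and Cd33 (0.997). For Gpr34 they were Tyrobp and Tgfbr1 (0.992 each), for P2ry6 Havcr2 (0.981) and Irf8 (0.973), and for P2rx7 Itgb5 (0.975) and Pik3ap1 (0.974). At least 0.99 was reached by 20 genes with P2ry12, 22 with P2ry13, 3 with Gpr34 and 0 with P2ry6 or P2rx7. The 4 receptors that were not called reached at most 0.871, for P2ry14 with St3gal2.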

How the data were processed

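Whole-number read counts per gene symbol were used as the authors deposited them, for 1 cortex library per mouse. The submitters' processing notes name FastQC, MultiQC, STAR, DESeq2 and DESeq with the mm10 genome, without roles or versions. How reads were assigned to genes, with which annotation and whether by strand, is not given in the sources used here. Each column name carries the group and number found in 1 sample title.

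All genes passing the filterByExpr rule of edgeR 4.0.16 (R 4.3.3) entered its test (TMM factors, robust quasi-likelihood F test, all 15 libraries in 1 fit, no covariate), with Benjamini-Hochberg adjustment over 18369 genes and a threshold of 0.05. Standard errors and intervals came from the fitted model's information matrix and quasi-likelihood dispersion. DESeq2 1.42.0, other filters and scalings, length and GC trends, a replicate block and leaving out each library were tried. The edgeR step was tested on simulated data for depletion against control, where 99% of genes changed by 1.5 log2 units and 75% of those changed by 0.5 were recovered among 18369. The changed genes were drawn from those above about 1 CPM in control. These recoveries therefore do not cover genes at lower levels, such as P2ry2 at 0.488 CPM. Ratios used log2(CPM + 0.1) and exact permutation tests. Coordinates and exon lengths came from GENCODE M21 on GRCm38, which is mm10. No pair of libraries within a group was a repeat of one library, since chi-square per degree of freedom was 2.53 to 9.95. Limits set by counts of 0 cover counting error only. The labels do not say how the mice were housed or processed, so the p-values measure the spread between these mice.

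The members and the gene lists were chosen with earlier results of these data known. Named genes are the 9 members, in each comparison up to 4 genes of each related list with the smallest adjusted p, Entpd1, Nt5e, Csf1r, and the 2 genes most correlated with each member. Outside that rule, Kcnk13, Il18, Aif1, Fcrls, Itgam as a reference gene, and the border macrophage markers Pf4, Cd209f and Ms4a7, which were not tested, were chosen after their values were seen.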

Additional observations from a re-analysis of the deposited data

Results flagged for a closer look

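Outliers were looked for among the 9 members in each group of 5 mice, 27 groups in all, of which chance alone flags about 1 in 20. One value stood apart. P2ry12 in repopulation 4 was at 24.9 CPM, below the 27.0 to 27.7 CPM of the other 4 mice of its group, and its gap to the nearest of them exceeded Dixon's critical value. The same library had the highest choroid plexus markers, at 546 CPM, and their part in this value was not tested.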

How the results depend on the processing

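The calls of P2ry12, P2ry13, Gpr34, P2ry6 and P2rx7 in depletion against control and in repopulation against depletion held in all 24 settings. Leaving out 1 library gave 5 to 6 called members in depletion against control, 5 to 5 in repopulation against depletion and 0 to 2 in repopulation against control, where DESeq2, no filter on low counts and a fit of the 2 groups alone gave 1 each. Over all genes, leaving out 1 library gave 2406 to 3131, 2357 to 3702 and 4579 to 5506 calls, and length and GC trends with the replicate block gave 1898 in depletion against control. Taking out length and GC trends moved the split of higher and lower calls from 1505 and 1533 to 784 and 1275 in depletion against control, from 1398 and 1649 to 987 and 1675 in repopulation against depletion, and from 2548 and 2797 to 1530 and 2773 in repopulation against control.

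Signs reversed only for differences that were not called, and for 2 ratios. They were, in depletion against control, P2ry1 at -0.01 with length and GC trends taken out (-0.02 with the block), -0.05 without control 2 or control 5 and -0.04 without depletion 5; P2ry2 at -0.08, -0.04, -0.03 and -0.14 without control 1, control 3, depletion 2 and depletion 5; and P2rx4 at 0.01 without depletion 2. In repopulation against depletion, P2ry2 was at 0.00 and -0.19 without repopulation 4 and 5. In repopulation against control, P2ry13 was at -0.01 without control 5, P2ry2 at -0.16 without repopulation 5, and P2rx4 at -0.05 with length and GC trends taken out, with or without the block, and 0.00 without control 1 or repopulation 2. Over all libraries left out in turn, P2ry1 ran from -0.05 to 0.21, P2ry2 from -0.14 to 0.16 and P2rx4 from -0.07 to 0.01 in depletion against control, P2ry2 from -0.19 to 0.39 in repopulation against depletion, and P2ry2 from -0.16 to 0.41, P2rx4 from 0.00 to 0.05 and P2ry13 from -0.01 to 0.09 in repopulation against control. The cause was not tested. The ratio of P2ry12 over P2ry13 on PLX3397 reversed to -0.26 with a pseudocount of 0.5 CPM, which is above all P2ry13 levels there. Its adjusted permutation p was 0.0159 in either direction.

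Without 1 library each, the ratio differences on PLX3397 were 0.90 to 1.18 for P2ry12 over P2ry13, -0.67 to -0.57 for P2rx7 over P2rx4 and -2.25 to -1.83 for P2ry6 over P2ry2, and after repopulation 0.07 to 0.12, 0.00 to 0.09 and -0.20 to 0.38, the negative value arising without repopulation 2, which had 3 P2ry2 reads. The labels do not say whether the replicate numbers pair the mice. Deviations from the group means correlated at -0.185 to 0.144 between same-numbered libraries (15 pairs). Between libraries of different numbers they correlated at -0.274 to 0.27 (60 pairs). These correlations cannot exclude a pairing with a small effect. Under the replicate block the differences of 1.04, -0.63 and -2.03 had an adjusted permutation p of 0.125. With 32 arrangements no two-sided p under 0.05 was possible, so this version could not call a ratio. Under the same block edgeR called 2832, 2801 and 5080 genes in the 3 comparisons, with 5, 5 and 0 members. P2ry2, with 3 to 27 reads per library, was not tested under the filter of at least 1 CPM in 5 libraries, and its 95% intervals reached from 0.604-fold to 1.85-fold over the 3 comparisons.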
